A study of Mus musculus with 20 samples.

Results

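The genes described here are 36 factors that help to build the large subunit of the ribosome. They were chosen by name from a written list, and all 36 were among the 15757 genes of the deposited table. The cells were OG2 embryonic fibroblasts, from mice with a fluorescent reporter under Oct4 control, and they were on the way to induced pluripotency. They had been infected at passage 2 with retroviruses for Oct4, Sox2, Klf4 and Myc and were kept in iCD1 medium. In 1 arm Ddx10, which encodes a nucleolar DEAD-box RNA helicase, was knocked down by shRNA, and the control arm received an shRNA against luciferase, a target the cells do not have. RNA was taken from each arm on days 0, 1, 3, 5 and 7, with 2 libraries per arm and day, so that 10 groups and 20 libraries were available. All groups, controls included, carried the same 4 reprogramming factors and an shRNA. The series text calls the replicates biological and speaks of Ddx10 shRNAs in the plural, and the labels do not say which shRNA a library received, how it was delivered, or whether replicates were separate infections. The p-values below therefore measure only the spread between these samples, which may be technical.

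The large ribosomal subunit is assembled in the nucleolus, where precursor RNA is folded, methylated, cleaved and joined by ribosomal proteins, and is then passed through the nucleoplasm and the nuclear pore to the cytoplasm. Assembly factors bind the precursor in turn and leave again: scaffold proteins and methyltransferases come early, AAA ATPases and GTPases drive the later rearrangements, and export factors ride to the cytoplasm. In many cell types their transcripts are known to follow growth and Myc activity, and Gnl3 (nucleostemin) was first described in neural stem cells. The roles given below rest in large part on work in budding yeast and human cells.

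To show the sequence around the start sites of genes whose transcripts set the main patterns, 6 promoters are printed from RefSeq (build GRCm38.p6, the same assembly as mm10), each with 250 bases before and 50 after the annotated start. Gnl3, Nmd3 and Rpf2 were among the genes with the strongest early rise in control cells, Nop2 had the largest loss over the whole course, and Nvl and Surf6 departed most from the common pattern. Capitals mark CACGTG, the E-box, which is its own reverse complement, and CCGGAAG or its reverse complement CTTCCGG, the core of the ETS motif.
Gnl3 promoter, chr14:31019082-31019381, minus strand: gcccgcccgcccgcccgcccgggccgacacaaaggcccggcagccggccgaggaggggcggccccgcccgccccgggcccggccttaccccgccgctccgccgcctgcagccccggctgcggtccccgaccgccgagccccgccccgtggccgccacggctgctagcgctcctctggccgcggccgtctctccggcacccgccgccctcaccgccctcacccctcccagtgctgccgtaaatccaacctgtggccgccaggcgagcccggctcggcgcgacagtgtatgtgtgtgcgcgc
Nmd3 promoter, chr3:69721805-69722104, plus strand: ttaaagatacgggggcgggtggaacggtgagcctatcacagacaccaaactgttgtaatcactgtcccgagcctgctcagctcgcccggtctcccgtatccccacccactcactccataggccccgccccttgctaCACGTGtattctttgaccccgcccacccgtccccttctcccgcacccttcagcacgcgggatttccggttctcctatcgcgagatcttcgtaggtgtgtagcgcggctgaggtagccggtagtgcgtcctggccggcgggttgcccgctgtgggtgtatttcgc
Rpf2 promoter, chr10:40246990-40247289, minus strand: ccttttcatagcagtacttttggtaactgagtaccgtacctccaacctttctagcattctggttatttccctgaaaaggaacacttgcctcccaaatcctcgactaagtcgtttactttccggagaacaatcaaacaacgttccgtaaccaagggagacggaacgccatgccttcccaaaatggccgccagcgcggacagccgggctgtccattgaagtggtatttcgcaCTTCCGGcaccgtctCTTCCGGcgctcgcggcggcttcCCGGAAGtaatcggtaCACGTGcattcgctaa
Nop2 promoter, chr6:125131633-125131932, plus strand: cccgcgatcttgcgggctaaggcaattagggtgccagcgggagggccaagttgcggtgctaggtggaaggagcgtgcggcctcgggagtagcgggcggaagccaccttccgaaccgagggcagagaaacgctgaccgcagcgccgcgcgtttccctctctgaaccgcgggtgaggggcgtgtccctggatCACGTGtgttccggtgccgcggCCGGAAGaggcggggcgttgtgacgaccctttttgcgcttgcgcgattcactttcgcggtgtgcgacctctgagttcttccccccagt
Nvl promoter, chr1:181144155-181144454, minus strand: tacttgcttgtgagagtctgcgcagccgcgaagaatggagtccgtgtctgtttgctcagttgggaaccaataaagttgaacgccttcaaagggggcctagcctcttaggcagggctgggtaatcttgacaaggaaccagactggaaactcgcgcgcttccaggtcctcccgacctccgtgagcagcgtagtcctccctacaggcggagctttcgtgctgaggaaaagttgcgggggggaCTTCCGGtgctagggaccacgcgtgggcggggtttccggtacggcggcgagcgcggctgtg
Surf6 promoter, chr2:26902838-26903137, minus strand: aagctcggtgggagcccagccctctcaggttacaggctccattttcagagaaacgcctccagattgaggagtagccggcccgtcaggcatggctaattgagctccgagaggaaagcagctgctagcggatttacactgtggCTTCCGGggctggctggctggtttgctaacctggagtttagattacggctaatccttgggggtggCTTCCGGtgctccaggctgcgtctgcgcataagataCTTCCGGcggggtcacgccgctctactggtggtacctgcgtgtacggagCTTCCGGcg

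In these windows the E-box of Nmd3 began 114 bases before the start and that of Nop2 60 bases before it. The Rpf2 window held 1 E-box and 3 ETS cores, the Surf6 window 4 ETS cores, the Nop2 and Nvl windows 1 ETS core each, and the Gnl3 window neither motif. A promoter entry existed for 29 of the 36 genes and 7 had none. The E-box was found in 8 of these 29 (27.6%) and in 11.2% of the 11344 genes of the table with a promoter entry. The ETS core was found in 13 of 29 (44.8%) and in 17.6% of the 11344. A palindromic form of the NRF1 motif occurred in 0 of 29 promoters and in 2.07% of all. Both strands were read, and no E-box overlapped an ETS core in the printed windows. These are matches of letters, not sites shown to be bound.

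The level of Ddx10 checks the labels. Ddx10 read 313 and 319 at day 0, 255 and 321 at day 1, 306 and 355 at day 3, 426 and 455 at day 5 and 530.0 and 529 at day 7 in knockdown libraries, against 523 and 499.9, 804 and 921, 803 and 841, 796 and 729 and 867 and 763 normalized read counts in control libraries of the same days. Both knockdown libraries were below both controls at each of the 5 days, and the log2 fold change was -0.69, -1.58, -1.31, -0.79 and -0.62 in day order (SE 0.12 each). Replicates correlated at r = 0.981 to 0.989 over all genes. The replicates of control day 1 differed most, with a median absolute log2 difference of 0.252 over all genes and 0.179 over the 36 factors, against 0.118 to 0.162 and 0.0604 to 0.135 in the other groups. The sum over all genes ran from 15.7 to 21.3 in units of 1e+06 normalized counts. Fibroblast markers were present as labelled, with 12 markers summing to 576307 to 612359 in knockdown and 695493 to 744013 in control libraries of day 0, and 12 pluripotency markers summed to 8845 to 9327 in knockdown and 7780.4 to 8042.5 in control libraries of day 7. The median of the 12 pluripotency markers went the other way. Against control day 0 its log2 value was 5.74 and 5.16 in knockdown and 5.89 and 5.87 in control libraries of day 7.

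All 36 factors were well measured: the lowest single value was 246 normalized read counts. Divided by merged exon length in kilobases, the mean level over 20 libraries had a median of 280.5 counts per kb, with a lowest value of 67.3 for Wdr12 and a highest of 6993 for Npm1. The merged length takes in all annotated exons of a gene, 11955 bases for Wdr12, so this order depends on the annotation. Before this division Wdr12 averaged 804 normalized counts, and Nle1 was lowest at 312. Npm1 encodes nucleophosmin, the abundant phosphoprotein of the outer nucleolar layer. The next gene, Rsl1d1, an RNA-binding nucleolar protein, stood at 1061 counts per kb, so that Npm1 was far above the rest of the set on this scale. Exons of 14 factors overlap another annotated gene, 13 of them on the opposite strand, and whether the counting used strand is not given in the sources used here. The longest shared stretches were 1590 bases between Nsa2 and Fam169a, 1137 between Nvl and a pseudogene, and 598 between Noc2l and Samd11, so the values of these 3 genes are less certain. Mrto4 and Nsa2 also have annotated pseudogene copies with which reads could be shared.

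**Figure D1:**
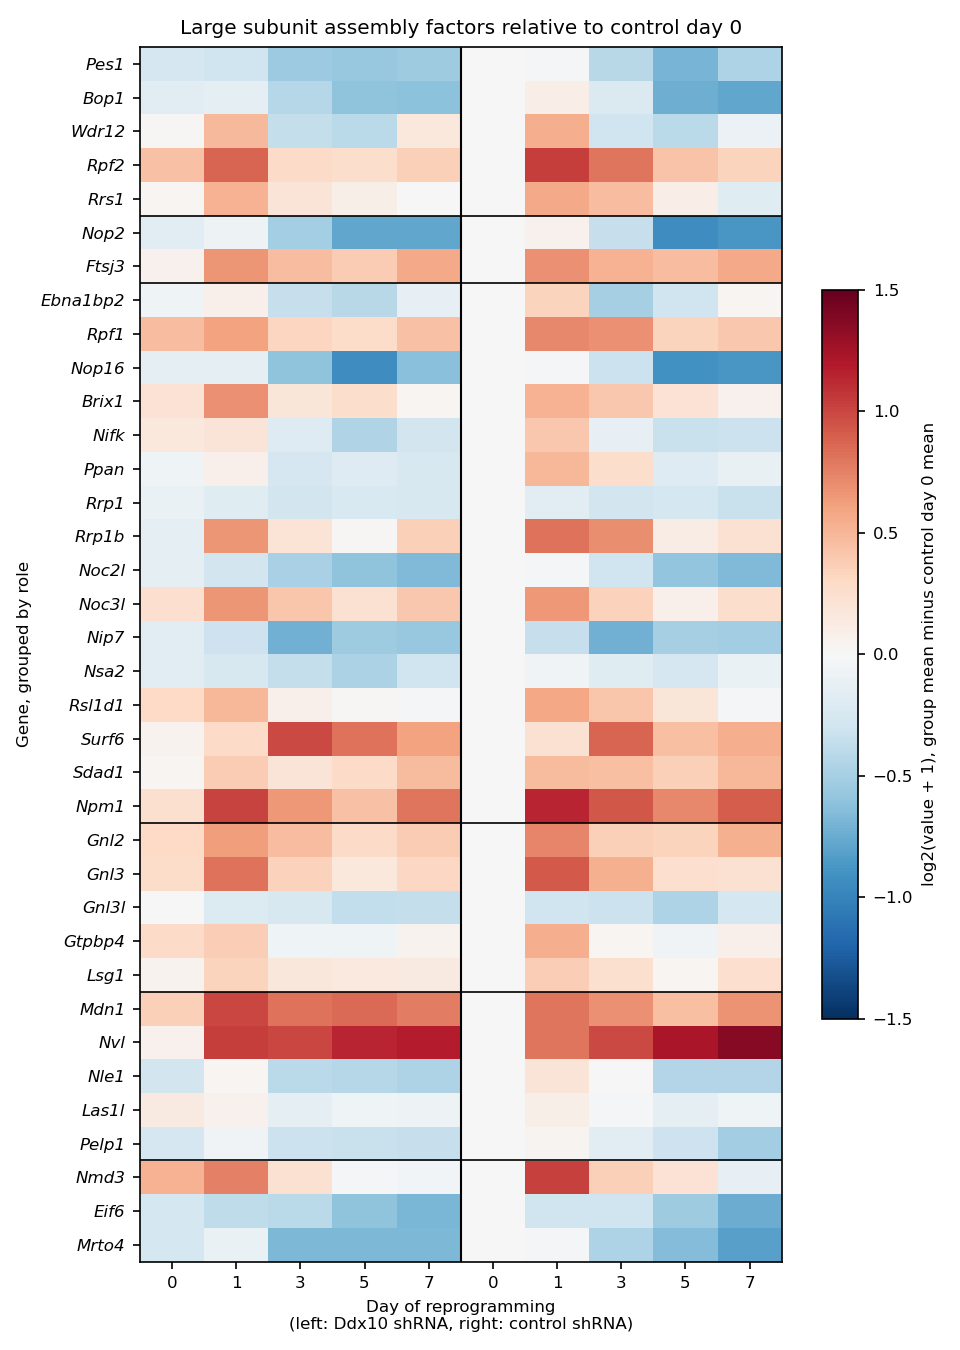
Mean log2(value + 1) of 2 libraries for each of the 36 factors (rows, grouped by role) minus its mean at control day 0, by day, with the Ddx10 shRNA arm on the left and the control shRNA arm on the right. Red is above and blue below control day 0. In each arm 25 of the 36 rows have their highest mean at day 1, while Surf6 is highest at day 3 and Nvl and Sdad1 at day 7. The share of all genes with a peak at day 1 was not counted.

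Most factors shared a course over the days. In each arm 25 of 36 had their highest group mean at day 1, 8 at day 0, 1 at day 3 (Surf6) and 2 at day 7 (Nvl and Sdad1), and 0 had their lowest mean at day 1. The lowest mean fell at day 5 or 7 for 22 factors in knockdown and 20 in control cells. The days of the highest and lowest mean were not counted over all genes. A peak at day 1 is therefore not shown to be particular to these factors. As a description of how closely each gene followed the others, its 10 group means were correlated with the mean of the other 35 factors on the log2 scale. Gnl3, a nucleolar GTPase, was closest (r = 0.92), followed by Nmd3, the adapter for export through the nuclear pore (0.89), and Rsl1d1 (0.89). Surf6, a nucleolar scaffold protein (-0.37), Nvl, an AAA ATPase that remodels the precursor (-0.20), and Gnl3l, a GTPase related to Gnl3 (0.11), were least like the rest. These 10 means share libraries among all genes, so the correlations carry no p, and they were not computed for genes outside the 36.

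Between day 0 and day 1 the assembly factors that moved were mostly higher at day 1. In Ddx10 knockdown cells 14 of 36 (38.9%) were called higher and 0 lower by limma at an adjusted p under 0.05, where 25.5% of all genes were called higher and 24.6% lower. An unadjusted p under 0.05 was found for 17 factors (47.2%) and for 55.9% of all genes. In control cells 20 of 36 (55.6%) were called higher and 2 (5.56%) lower, where the shares of all genes were 28.3% and 26.7%. The median log2 change of the factors was 0.21 in knockdown and 0.44 in control cells, and that of all genes was 0.00 in knockdown and 0.01 in control cells. Nvl, Rrp1b and Npm1 rose most in knockdown cells, and Npm1, Rpf2 and Nmd3 in control cells.

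Npm1 (GRCm38 chr11:33152287-33163206, minus strand) read 21207 and 24275 at day 1, against 13324 and 13282 at day 0, in knockdown libraries, and 27319 and 22856 at day 1, against 11072 and 11491 at day 0, in control libraries. The later libraries were above the earlier ones in both arms without overlap, and the log2 change was 0.77 (SE 0.09) in knockdown and 1.15 (SE 0.09) in control cells. Rpf2, which with Rrs1 docks the 5S RNA particle onto the precursor in yeast, gave 607 and 687 at day 1, against 513 and 447 at day 0, in knockdown cells, and 695 and 751 at day 1, against 317 and 389 at day 0, in control cells. Its log2 change was 0.43 (SE 0.13, limma adjusted p = 0.011) in knockdown and 1.04 (SE 0.13, limma adjusted p = 5.5e-06) in control cells. In knockdown cells the Rpf2 call was lost without replicate 2 of day 0 (limma adjusted p = 0.106) or replicate 2 of day 1 (0.0991). Nmd3 read 1621 and 2301 at day 1, against 1874 and 1436 at day 0, in knockdown libraries, which overlapped. In control libraries Nmd3 stood at 2093 and 2604 at day 1, against 1143 and 1151 at day 0, with no overlap and a log2 change of 1.02 (SE 0.18). Gnl3 gave 1778 and 1894 at day 1, against 1430.3 and 1131 at day 0, in knockdown cells (log2 0.53, SE 0.10), and 1885 and 2065 at day 1, against 1024 and 1070.2 at day 0, in control cells (log2 0.91, SE 0.10). The Gnl3 libraries of day 1 were all above those of day 0.

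Rrp1b (GRCm38 chr17:32036100-32062865, plus strand), a nucleolar protein related to yeast Rrp1, was at 956 and 906 at day 1, against 534 and 524 at day 0, in knockdown cells, and at 1022 and 1044 at day 1, against 601 and 575 at day 0, in control cells. The log2 change was 0.81 (SE 0.10) in each arm. Nvl read 1769 and 1941 at day 1, against 959 and 930.3 at day 0, in knockdown cells (log2 0.97, SE 0.10), and 1399 and 1776 at day 1, against 892 and 916 at day 0, in control cells (log2 0.80, SE 0.10). Both genes were higher at day 1 in all libraries. The only factors called lower were Nip7, which joins early nucleolar particles, and Gnl3l, both in control cells. Nip7 read 601 and 772 at day 1, against 817 and 912 at day 0 (log2 -0.34, SE 0.12, limma adjusted p = 0.030), and Gnl3l 1373 and 1468 at day 1, against 1709 and 1777 at day 0 (log2 -0.30, SE 0.11, limma adjusted p = 0.033). The Nip7 call was lost without control replicate 2 of day 0 (limma adjusted p = 0.178) or replicate 1 of day 1 (0.318), and the Gnl3l call without replicate 1 (0.0679) or 2 (0.128) of day 0 or replicate 1 of day 1 (0.131).

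By role, the shares called higher are to be read beside the 25.5% of all genes in knockdown and 28.3% in control cells, which several of these small groups lie near. Among 5 genes of the PeBoW complex (Pes1, Bop1 and Wdr12, needed for cleavage of the precursor) and of 5S docking (Rpf2 and Rrs1), 2 rose in knockdown and 3 in control cells. Ftsj3, a ribose methyltransferase related to yeast Spb1, rose in both arms, by 0.59 and 0.68 on the log2 scale in knockdown and control cells, while Nop2, a cytosine methyltransferase of large subunit RNA, changed by 0.10 and 0.07 and was not called. Of 16 nucleolar assembly and scaffold factors, 5 rose in knockdown cells, against 9 that rose and 1 that fell in control cells. Of 5 GTPases, 3 rose in knockdown cells, against 4 that rose and 1 that fell in control cells, with Gnl2 at 0.33 and 0.73. Among 5 genes of the AAA ATPase and spacer cleavage group, 3 rose in knockdown and 2 in control cells, Nvl and Mdn1 in both arms. Mdn1 (midasin), the giant ATPase that strips assembly factors from the nucleoplasmic particle, changed by 0.64 and 0.80. Of 3 export and cytoplasmic factors, 0 rose in knockdown cells and Nmd3 rose in control cells.

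Macrophage and blood markers moved with the same step. Their 12 genes summed to 293 to 324 at day 1, against 3903 to 4009.8 at day 0, in knockdown libraries, and to 254 to 281 at day 1, against 2717 to 4020.2 at day 0, in control libraries, and all 12 fell in both arms. None was at 0 in both libraries of a day 0 group, and 0 of 12 in knockdown and 2 of 12 in control cells were at 0 in both libraries of day 1. In bulk samples fewer cells of a type and less RNA per cell cannot be told apart, and the part of the blood markers in the changes of the assembly factors was not tested. Cell cycle genes rose at the same step: 18 of 20 S phase genes and 19 of 20 G2 and M phase genes in each arm.

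**Figure D2:**
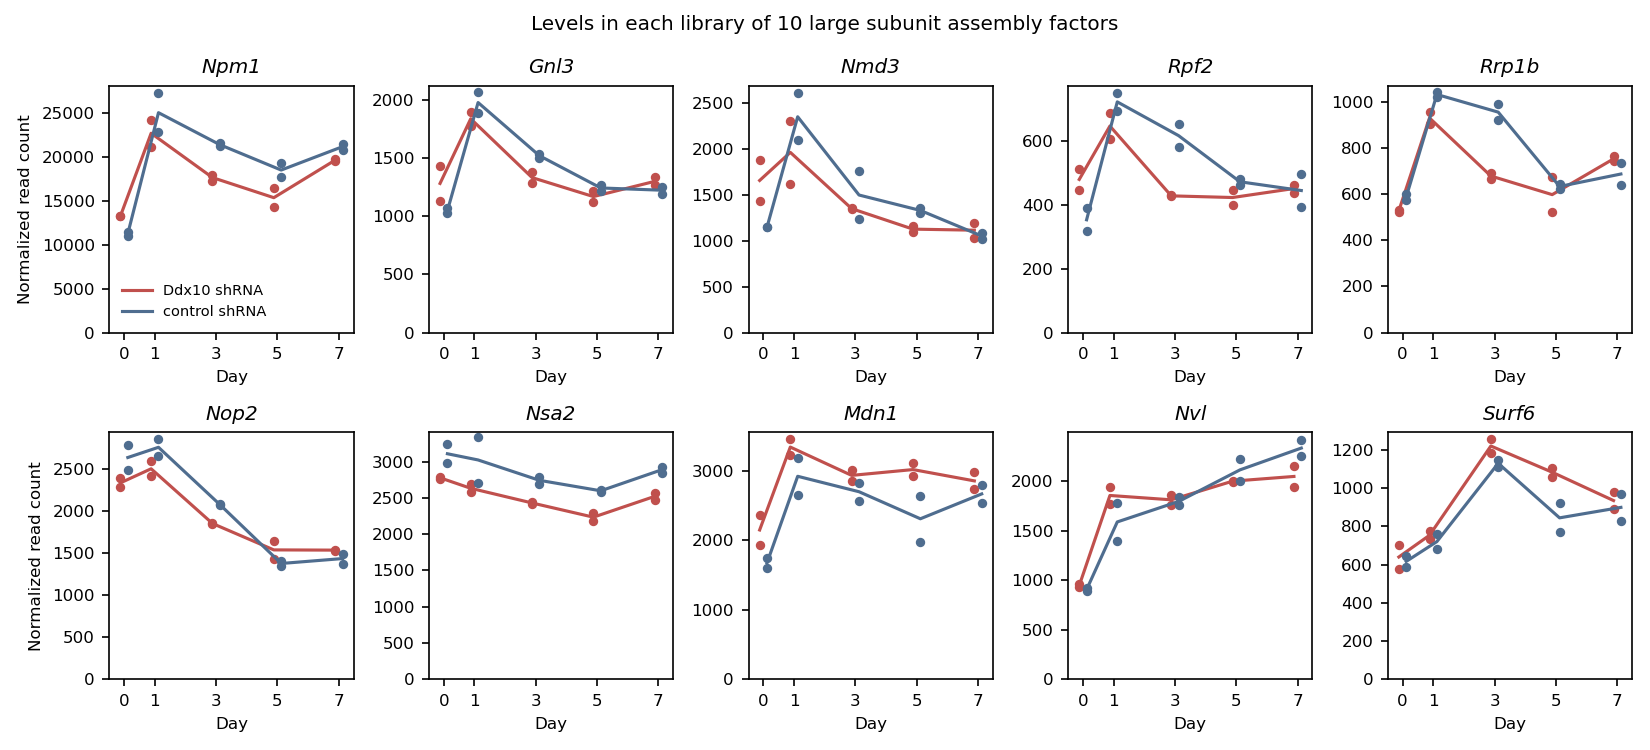
Normalized read counts of 10 factors by day, with 1 point per library and lines through the mean of 2 libraries, Ddx10 shRNA in red and control shRNA in blue, on linear axes from 0. Npm1, Gnl3, Nmd3, Rpf2 and Rrp1b peak at day 1 in both arms, Nop2 is lower from day 3 on than at day 1, Nvl is higher from day 1 on than at day 0, and Surf6 is highest at day 3.

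From day 1 to day 3 most of the factors that were called fell in both arms, and Surf6 was the only one called higher. In knockdown cells 19 of 36 (52.8%) were called lower and 1 higher, where 14.3% of all genes were called lower and 18.0% higher. In control cells 14 (38.9%) were called lower and 1 higher, where 17.6% of all genes were called lower and 19.5% higher. The median log2 change was -0.30 in knockdown and -0.22 in control cells, and that of all genes was 0.03 in knockdown and 0.01 in control cells. In knockdown cells the count of called factors was 11 without replicate 2 of day 1 and 13 without either replicate of day 3, and 8 of the 20 calls were kept whichever library was left out. In control cells 10 of 15 calls were kept in the same way, but limma called 4 when only the compared libraries were fitted, and without replicate 2 of day 1 Nvl was called higher beside Surf6 (log2 0.36, limma adjusted p = 0.0064). Cell cycle genes moved with the same step: 20 of 20 S phase genes and 19 of 20 G2 and M phase genes fell in knockdown cells, against 14 and 13 of 20 in control cells, and their part in the changes of the assembly factors was not tested.

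All 5 genes of the PeBoW complex and 5S docking fell in knockdown cells, and Pes1, Bop1 and Wdr12 fell in control cells. Wdr12 read 626 and 618 at day 3, against 1187 and 1046 at day 1, in knockdown libraries, and 719 and 580.2 at day 3, against 977 and 1375 at day 1, in control libraries. Day 3 was below day 1 without overlap in both arms, and the log2 change was -0.84 (SE 0.19) in each. Rpf2 gave 430.3 and 427 at day 3, against 607 and 687 at day 1, in knockdown cells (log2 -0.59, SE 0.13), and 652 and 582 at day 3, against 695 and 751 at day 1, in control cells, which was not called. Of 3 export and cytoplasmic factors, Nmd3 and Mrto4 fell in both arms. Mrto4, which holds the place of a stalk protein on the precursor, was at 747 and 666 at day 3, against 1078 and 1031 at day 1, in knockdown cells (log2 -0.58, SE 0.09), and at 854 and 777 at day 3, against 1101 and 1107 at day 1, in control cells (log2 -0.44, SE 0.09). The Nmd3 call was lost in knockdown cells without replicate 2 of day 1 (limma adjusted p = 0.352), replicate 1 of day 3 (0.116) or replicate 2 of day 3 (0.119), and in control cells without replicate 2 of day 1 (0.0867) or of day 3 (0.124).

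Ebna1bp2, the mammalian counterpart of yeast Ebp2, fell in control cells by 0.83 on the log2 scale (SE 0.18), with 974 and 764 at day 3, against 1211 and 1956 at day 1. In knockdown cells Ebna1bp2 read 1024 and 903 at day 3, against 1272 and 1300.3 at day 1, and was not called. With only the compared libraries fitted this turned round: the knockdown change of -0.42 was called (limma adjusted p = 0.0063, and 0.036 with library weights) and the control call was lost (0.0631). Surf6 read 1258 and 1185 at day 3, against 733 and 775 at day 1, in knockdown cells (log2 0.70, SE 0.11, limma adjusted p = 0.00021), and 1151 and 1111 at day 3, against 759 and 682 at day 1, in control cells (log2 0.65, SE 0.11, limma adjusted p = 0.00030). The 4 libraries of day 3 were above the 4 of day 1.

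From day 3 to day 5 the called factors were all lower, 1 in knockdown and 12 in control cells. Of 36 factors, 1 (2.78%) was called lower and 0 higher in knockdown cells, where 7.20% of all genes were called lower and 7.72% higher, against 12 (33.3%) lower and 0 higher in control cells, where 15.4% of all genes were called lower and 15.9% higher. The median log2 change was -0.06 in knockdown and -0.22 in control cells, and 0.01 and 0.02 over all genes. Beside these changes, 4 of 20 S phase genes (median -0.13) and 5 of 20 G2 and M phase genes (median -0.23) fell in knockdown cells, against 17 (median -0.51) and 15 (median -0.56) in control cells, and 0 rose. The 8 epithelial markers summed to 8231 to 8554 at day 5, against 2682 to 2739 at day 3, in knockdown libraries, and to 17546 to 18799.9 at day 5, against 4875 to 5085 at day 3, in control libraries, and 0 of the 8 were at 0. The part of these genes was not tested. Nop2 fell in both arms, to 1430.0 and 1639.9 at day 5, against 1851 and 1847 at day 3, in knockdown cells (log2 -0.27, SE 0.08, limma adjusted p = 0.032), and to 1409 and 1338 at day 5, against 2079 and 2068 at day 3, in control cells (log2 -0.59, SE 0.08, limma adjusted p = 4.9e-05). In knockdown cells this call was lost without replicate 1 (limma adjusted p = 0.129) or 2 (0.13) of day 3 or replicate 1 of day 5 (0.306), and Rrp1b was called beside it without replicate 2 of day 5. Rrp1b read 643 and 625 at day 5, against 923 and 989.9 at day 3, in control cells (log2 -0.59, SE 0.10). Nop16, an early nucleolar factor, read 503 and 529.5 at day 5, against 760.2 and 795 at day 3, in control cells (log2 -0.59, SE 0.15). Both genes were lower at day 5 without overlap. In control cells 6 factors were called without replicate 1 of day 3 and 5 without replicate 2 of day 5, and 5 of the 12 calls were kept whichever library was left out. From day 5 to day 7 limma called 0 factors in either arm, where 0.228% of all genes were called in knockdown and 0.908% in control cells. In each arm 6 factors (16.7%) had an unadjusted p under 0.05, against 11.9% of all genes in knockdown and 16.0% in control cells, and with library weights Npm1 was called in knockdown cells and Pes1 and Rrs1 in control cells.

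**Figure D3:**
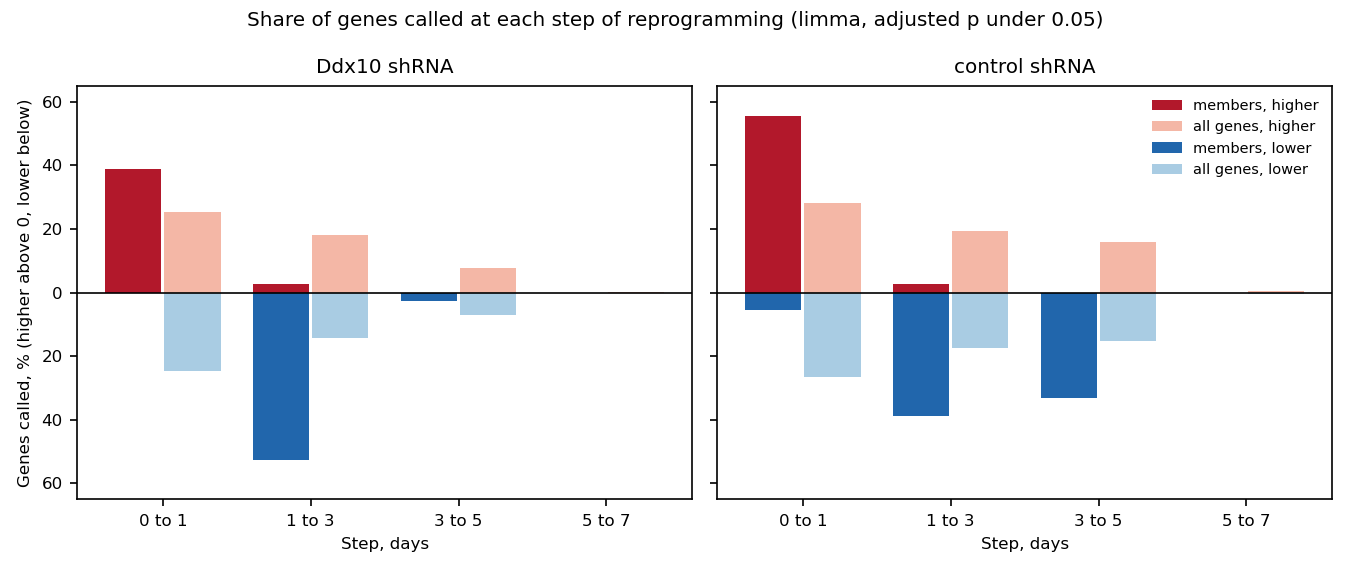
Percent of the 36 factors (dark bars) and of all 15757 genes (light bars) called higher (above 0) or lower (below 0) at each step between sampled days, with the Ddx10 shRNA arm on the left. In the step to day 1, 38.9% of the factors in knockdown and 55.6% in control cells were called higher, and in the step from day 3 to day 5 2.78% in knockdown and 33.3% in control cells were called lower.

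The difference between arms in the steps to days 1, 3 and 5 was tested directly, since counts at a threshold do not show that the arms differ. For the step to day 1 limma called 0 of 36 factors as different between arms, where 0.273% of all genes were called, and 9 of 36 factors had an unadjusted p under 0.05, against 12.8% of all genes. The lowest of these differences was -0.79 for Nmd3, and without control replicate 1 of day 1 limma called Gtpbp4 (-0.63) and Eif6 (0.46). For the steps to day 3 and to day 5, tests chosen after the steps had been seen, limma also called 0 factors, where 0.178% and 0.222% of all genes were called, and 1 factor (2.78%) and 6 factors (16.7%) had an unadjusted p under 0.05, against 10.3% and 10.8% of all genes. In the step from day 3 to day 5, the knockdown minus control difference was above 0 for 28 of 36 factors, with a median of 0.18 on the log2 scale, against 0.00 over all genes.

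Over the whole course, day 7 against day 0, factors moved both ways. In knockdown cells 7 were called higher (19.4%) and 14 lower (38.9%), where 36.2% of all genes were called higher and 30.9% lower, against 12 higher (33.3%) and 13 lower (36.1%) in control cells, where 38.6% and 33.7% of all genes were called. The median log2 change was -0.14 in knockdown and -0.08 in control cells, and that of all genes was 0.08 and 0.09. With quantile scaling the control median was 0.05, on the other side of 0. In knockdown cells 14 factors were called without replicate 1 of day 0.

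Nvl had the largest gain in both arms, at 2153 and 1941 at day 7, against 959 and 930.3 at day 0, in knockdown cells (log2 1.11, SE 0.10), and 2415 and 2253 at day 7, against 892 and 916 at day 0, in control cells (log2 1.37, SE 0.10). Npm1 was next in both arms, at 19553 and 19794 at day 7 in knockdown cells (log2 0.56, SE 0.09) and 21559.5 and 20861 at day 7 in control cells (log2 0.91, SE 0.09). Surf6 rose by 0.55 in knockdown and 0.54 in control cells, and Mdn1 by 0.42 (SE 0.13) in knockdown and 0.67 (SE 0.13) in control cells. The Mdn1 call in knockdown cells was lost without replicate 2 of day 0 (limma adjusted p = 0.126) or of day 7 (0.0703).

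At the other end stood Nop2, at 1528 and 1537 at day 7, against 2279.8 and 2384 at day 0, in knockdown cells (log2 -0.61, SE 0.08), and at 1492 and 1372 at day 7, against 2780.3 and 2485 at day 0, in control cells (log2 -0.88, SE 0.08). Nop16 fell by 0.47 in knockdown and 0.87 in control cells, Mrto4 by 0.41 and 0.81, and Noc2l, a nucleolar protein that also binds histones, by 0.53 and 0.66 on the log2 scale. All 3 export and cytoplasmic factors fell in knockdown cells, and Mrto4 and Eif6 fell in control cells. Eif6, which keeps the new subunit from joining a small subunit too early, was at 1536 and 1713 at day 7, against 2111 and 2239 at day 0, in knockdown cells, and at 1558 and 1553 at day 7, against 2631 and 2603 at day 0, in control cells. Nmd3 fell by 0.56 (SE 0.18) in knockdown cells, a call lost without replicate 1 of day 0 (limma adjusted p = 0.132) or replicate 2 of day 7 (0.0848), and the Nop16 call there was lost without the same libraries (0.0534 and 0.133). The Eif6 call in knockdown cells was lost without replicate 1 of day 7 (0.0665). Myc, one of the delivered factors, read 719 and 670.0 at day 7, against 1750.2 and 1791 at day 0, in knockdown cells (log2 -1.35, SE 0.09), and 654 and 594 at day 7, against 2087 and 1836 at day 0, in control cells (log2 -1.65, SE 0.09), and these counts do not separate viral from endogenous copies. Limma called Myc lower in the steps to days 1, 3 and 5 in both arms. In the step to day 1, where most called factors rose, its log2 change was -0.26 in knockdown and -0.23 in control cells (SE 0.09 each, limma adjusted p = 0.029 and 0.047). The part of Myc in the changes of the assembly factors was not tested.

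Gnl2, a GTPase of the nucleoplasmic particle, was the only factor whose change over the whole course differed between arms by limma, at -0.45 on the log2 scale (knockdown minus control, SE 0.12, adjusted p = 0.043), where 3.92% of all genes were called higher and 2.46% lower. It read 1106 and 1032 at day 7, against 967 and 1046 at day 0, in knockdown cells, and 1222 and 1149.9 at day 7, against 793 and 844 at day 0, in control cells. The days overlapped in knockdown cells and not in control cells. Leaving out any single library of the 8 compared ended this call (limma adjusted p = 0.0515 to 0.17).

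Knockdown was then set against control at each day. At day 3 limma called 2 of 36 factors, both lower (5.56%), where 2.25% of all genes were called lower and 2.51% higher. An unadjusted p under 0.05 was found for 13 factors (36.1%) and for 19.3% of all genes. Rrp1b read 694 and 664 in knockdown libraries, against 923 and 989.9 in control libraries (log2 -0.49, SE 0.10, limma adjusted p = 0.015), and Rpf2 read 430.3 and 427 in knockdown libraries, against 652 and 582 in control libraries (log2 -0.52, SE 0.13, limma adjusted p = 0.030). The 2 arms did not overlap for either gene. The Rpf2 call was lost when any single library of the 4 was left out (limma adjusted p = 0.0891 to 0.173). The Rrp1b call was lost without either knockdown replicate (0.0828 and 0.112) or control replicate 2 (0.129). Counts at this day ran from 1 to 8 factors under other settings with all libraries kept.

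Most of the 36 factors had a day 3 difference below 0. The median log2 difference was -0.14, against 0.01 over all genes, and 28 of 36 factors lay below 0. Both knockdown libraries were below both controls for 21 of 36 factors (58.3%), where this held for 24.7% of all genes, and above both for 3 (8.33%), where it held for 28.7%. All 5 genes of the PeBoW complex and 5S docking, both methyltransferases and all 3 export and cytoplasmic factors had a negative difference. The difference was negative for 3 of 5 GTPases, with Gnl2 and Gnl3l above 0, for 3 of 5 genes of the AAA ATPase and spacer cleavage group, with Nvl and Mdn1 above 0, and for 12 of 16 nucleolar factors, with a median of -0.21. Ppan, which matures the earliest precursors, read 864 and 772 in knockdown libraries, against 1154 and 1175 in control libraries, without overlap. Its log2 difference of -0.51 was not called, but it was with quantile scaling, a pseudocount of 5, a minimum mean of 50, library weights or the compared libraries alone. Beside these values, 11 of 20 S phase genes (median -0.37) and 14 of 20 G2 and M phase genes (median -0.46) were called lower at day 3 and 0 higher. The 8 epithelial markers summed to 2682 to 2739 in knockdown and 4875 to 5085 in control libraries of that day, and the 12 fibroblast markers to 189383 to 201216 and 153742 to 162943. The part of these genes in the differences of the assembly factors was not tested.

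At day 1, 29 of 36 factors also lay below 0, with a median of -0.10, against -0.00375 over all genes. At each day the factors share the same libraries, so the factors counted below 0 are not separate observations. For day 1 limma called 0 factors, where 0.146% of all genes were called. An unadjusted p under 0.05 was found for 7 (19.4%), against 13.1% of all genes. Without control replicate 2 of day 1, 5 factors were called, of which Ppan, Pes1, Eif6 and Nsa2 were lower and Nvl was higher, genes named here after their values were seen. Both knockdown libraries were below both controls for 13 factors (36.1%), where this held for 18.1% of all genes, and above for 2, where it held for 16.6%. At day 0 limma called 0 factors, where 3.31% of all genes were called, and 16 factors (44.4%) had an unadjusted p under 0.05, against 20.7% of all genes. At that day 13 factors were below both controls and 16 above them, where 27.5% and 22.8% of all genes were, and without knockdown replicate 2 limma called Rpf1 and Gnl3 higher. At days 5 and 7 limma called 0 factors, where 8.73% and 6.17% of all genes were called, with medians of -0.02 and 0.02. At these days 4 factors (11.1%) and 1 factor (2.78%) had an unadjusted p under 0.05, against 22.2% and 18.4% of all genes. At day 5, 7 factors (19.4%) were below both controls and 5 (13.9%) above them, where 29.4% and 27.1% of all genes were. At day 7, 9 factors (25%) were below and 11 (30.6%) above, where 27.6% and 28.6% of all genes were. At day 5 quantile scaling called Surf6 and Mdn1 higher and Npm1 lower, Mdn1 was called without control replicate 1 and Npm1 without knockdown replicate 2, and at day 7 library weights called Nsa2 lower.

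**Figure D4:**
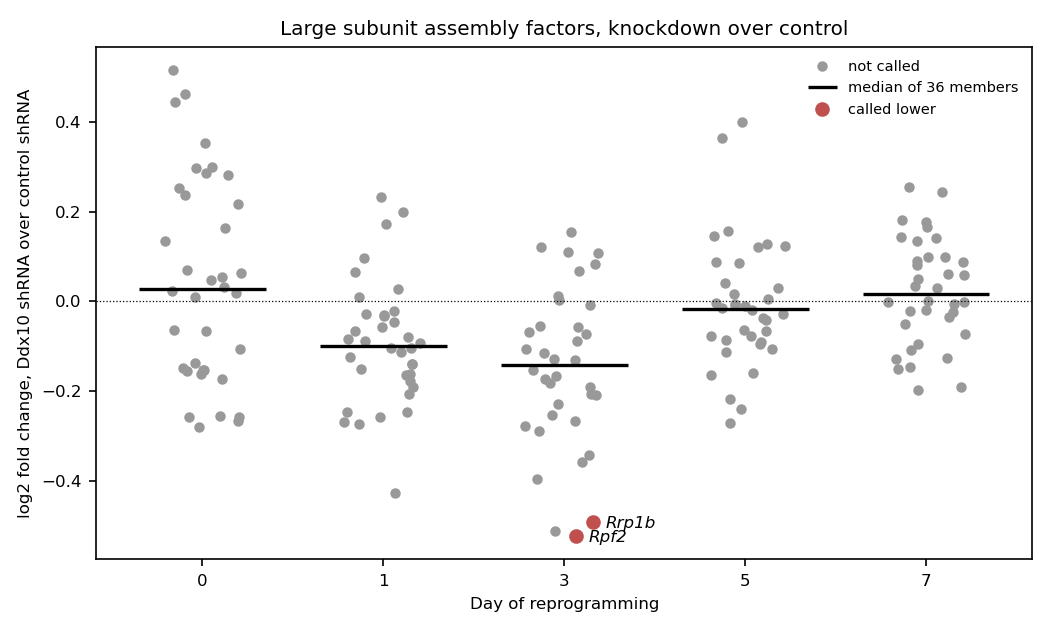
Log2 fold change of Ddx10 shRNA over control shRNA for each of the 36 factors (points) at each day, with the median as a bar. Points called by limma are red: Rrp1b and Rpf2 at day 3. The median is lowest at day 3, at -0.14, and lies at 0.03 at day 0 and 0.02 at day 7.

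As the mean of all 5 days, 1 factor was called higher and 6 lower (16.7%), where 10.3% of all genes were called higher and 7.46% lower. An unadjusted p under 0.05 was found for 11 factors (30.6%) and for 30.5% of all genes, so the share was that of all genes. With quantile scaling 2 were called higher and 4 lower. Nsa2 (GRCm38 chr13:97129424-97137937, minus strand), a nucleolar factor that stays on the precursor into the nucleoplasm, was lower in knockdown cells by 0.19 on the log2 scale (SE 0.04, limma adjusted p = 0.0022). It read 2762 and 2792 at day 0, 2579 and 2686 at day 1, 2415 and 2444 at day 3, 2181 and 2287 at day 5 and 2476 and 2566 at day 7 in knockdown libraries, against 2976 and 3242, 3344 and 2702, 2691 and 2793, 2607 and 2588 and 2847 and 2933 in control libraries of the same days. Both knockdown values were below both control values at each of the 5 days. Mdn1 (GRCm38 chr4:32657119-32775217, plus strand) was higher by 0.23 (SE 0.06, limma adjusted p = 0.010), with 2366 and 1937, 3230.3 and 3464, 2855 and 3023, 3113 and 2932 and 2737 and 2982 in knockdown libraries of days 0, 1, 3, 5 and 7, against 1749 and 1603, 2659 and 3193, 2575 and 2831, 2644 and 1982 and 2805 and 2537 in control libraries. Its arms overlapped at day 7 and at no other day. The Nsa2 and Mdn1 calls were kept whichever of the 20 libraries was left out. These fits do not bear on Nsa2 reads that could be shared with Fam169a or with pseudogene copies.

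The other 5 calls over the mean of all days were lost in some of the fits without a library. Ppan was lower by 0.22 (SE 0.06, limma adjusted p = 0.023), a call lost in 5 of 20 fits without a library. At day 1 Ppan read 1070.5 and 978 in knockdown libraries, against 1607 and 1177 in control libraries, and its values overlapped at days 0, 5 and 7. Nle1 (Notchless), the ligand that Mdn1 pulls off the particle, was lower by 0.17 (SE 0.05, limma adjusted p = 0.040), and Rrp1b by 0.15 (SE 0.05, limma adjusted p = 0.036). Nle1 was at 277 and 266 in knockdown libraries of day 3, against 376 and 341 in control libraries, and at 255 and 264 in knockdown libraries of day 7, against 269 and 259 in control libraries, where the arms overlapped. Noc2l and Pes1 were lower by 0.11 and 0.12 (SE 0.04 each, limma adjusted p = 0.038 and 0.047). These calls were lost in 12 (Noc2l), 13 (Rrp1b), 15 (Nle1) and 18 (Pes1) of the 20 fits without 1 library. The count of 7 fell to 2 without knockdown replicate 1 of day 5 or 7, and to 3 without knockdown replicate 1 of day 0, either knockdown replicate of day 3, control replicate 1 of day 5 or control replicate 2 of day 7. It was 4 without control replicate 1 of day 0, 3 or 7, control replicate 2 of day 5, or knockdown replicate 2 of day 1 or 7. It was 10 without control replicate 2 of day 1.

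Other genes of ribosome assembly, taken from lists outside the 36, were counted in the same fits. For the step to day 1, 25.5% of all genes were called higher and 24.6% lower in knockdown cells. In control cells these shares were 28.3% and 26.7%. Some of the lists lie near the share of all genes called higher. In the step to day 1, 19 of 39 small subunit factors rose and 3 fell in knockdown cells, with Wdr43 at 0.57, and 24 rose and 2 fell in control cells, with Wdr43 at 0.97. Of 31 further large subunit factors 9 rose and 5 fell in knockdown cells and 12 rose and 6 fell in control cells, with the median at 0.05 in knockdown and 0.08 in control cells, beside 0.21 and 0.44 for the 36. Among 8 DEAD-box helicases of the large subunit 2 rose and 1 fell in knockdown cells, and 5 rose and 1 fell in control cells. Of 15 RNA polymerase I genes 4 rose and 2 fell in knockdown and 5 rose and 1 fell in control cells, with Taf1d, a promoter selectivity factor, at 1.25 in knockdown and 1.40 in control cells. From day 1 to day 3, 23 of 39 small subunit factors fell and 0 rose in knockdown cells, against 22 and 0 in control cells, and 16 of 31 further large subunit factors fell and 1 rose in knockdown cells, against 15 and 0 in control cells. Of all genes, 14.3% were called lower and 18.0% higher in that step in knockdown cells, and 17.6% and 19.5% in control cells.

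Between knockdown and control at day 3, limma called 0 of 31 further large subunit factors, 0 of 8 helicases, 0 of 39 small subunit factors (7, 3 and 9 at an unadjusted p under 0.05, as were 19.3% of all genes) and 2 of 15 RNA polymerase I genes, both lower: Ubtf, which binds ribosomal DNA, at -0.24, and Taf1d at -0.56. The medians were -0.08, -0.13, -0.08 and -0.11 in that order, beside -0.14 for the 36 factors. At that day 2.25% of all genes were called lower and 2.51% higher. Over the mean of all days 3 of the 31 and 5 of the 39 were lower and 0 higher, where 7.46% of all genes were called lower and 10.3% higher. The 2 RNA polymerase I genes with the smallest p, Polr1c and Ubtf, were called lower, at -0.23 and -0.11. Whether the 36 differ from these other lists was not tested.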

How the data were processed

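Paired-end reads of messenger RNA were produced for 20 samples, per the labels' protocols. The authors deposited a single table of 15757 genes, whose values are a normalized signal derived from read counts. The mm10 build, DESeq2 1.22.0, RSEM 1.2.22, STAR 2.5.2a and Trim Galore 0.4.4 are named, without order or role, per the submitters' processing notes, and the normalization step, annotation and strand setting are not given in the sources used here. The values are not whole: at the best step, 46.1 to 63.4% of low values lay within 0.1 of a whole number of steps, so no count test was run, and the depth in reads is unknown.

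Values were transformed to log2(value + 1), a scale on which fold changes of low genes are understated. A minimum of 1 in 2 libraries removed no gene. All 20 libraries entered 1 fit of 10 group means in limma 3.58.1 (R 4.3.3), with trend and robust settings, with Benjamini-Hochberg adjustment over all 15757 genes and a threshold of 0.05. Tested on simulated data for knockdown against control at day 3, the fit over 15757 genes recovered 78% of 100 genes changed by 1 and 45% of 100 changed by 0.5 on the log2 scale, with 7 false calls. The changed genes were drawn at random from genes with a mean above 50, and no other gene changed. Recovery of lower genes was not simulated. The adjusted threshold is harder to pass there than where many genes change. Alternatives were quantile scaling, pseudocounts of 0.1 and 5, no filter, a minimum mean of 50, no trend or robust setting, library weights, the replicate number as a block over all libraries or, between arms, nested in day, the compared libraries alone, and leaving out each library.

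Libraries with the same replicate number in both arms did not deviate together: the correlation of their deviations was -0.0503, 0.0838, 0.0158, 0.00481 and 0.0252 at days 0, 1, 3, 5 and 7, so numbers were not taken as pairs. Genes named with full statistics were those called between arms (up to 6 with the smallest p), the 3 largest rises and falls of each time comparison, and the 3 most and 3 least like the other factors; Pes1 in the mean of all days and the other factors described were added after their values were seen. The members, the other lists and the comparisons were chosen with earlier results of these data known. Gene coordinates and exon lengths came from GENCODE for GRCm38, and promoters from RefSeq. One listed gene outside the 36, Rpl7l1, was not analysed here.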

Additional observations from a re-analysis of the deposited data

Results flagged for a closer look

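Gnl2 changed differently in knockdown and control cells over the whole course by the test of the difference itself, at -0.45 on the log2 scale (day 7 against day 0, knockdown minus control, SE 0.12, limma adjusted p = 0.043). Day 7 was above day 0 in both control libraries, and the days overlapped in knockdown libraries. At day 0 both knockdown libraries were already above both control libraries, and at day 7 they were below both. The call was lost without any 1 of the 8 libraries compared. Gnl2 was 1 of 36 factors (2.78%), where 2.46% of all genes were called lower and 3.92% higher, so the share was near that of all genes.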

How the results depend on the processing

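The 20 comparisons were refitted under other settings, and 2 of them (the differences between arms in the steps to day 3 and day 5) were chosen after seeing the data. The replicate block nested in day was run for the 6 comparisons of knockdown with control alone, and the fit on the compared libraries for the 19 that do not already use all libraries. Of 185 counts of called factors with all libraries kept, 158 were within 1.5 times of the reported count. The refits without a filter are among them and had to agree, since the filter removed no gene. Of 734 values of the named genes, 632 kept their direction and their side of the threshold, 102 kept the direction but lost the call, and 0 reversed. These values belong to calls already made, Ddx10 included, so no call could be gained. Several settings leave the log2 change as it was, so the absence of reversals says little.

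Between arms, the count at day 3 was 4 with quantile scaling, 1 without trend and robust settings, 8 with library weights, 1 with the replicate block nested in day and 5 on the compared libraries alone, against 2 as reported. At day 5 it was 3 with quantile scaling, 1 with a minimum mean of 50, 4 with weights and 2 with the nested block, against 0, and at day 7 it was 1 with weights or on the compared libraries alone, against 0. For the mean of all days it was 4 without trend and robust settings or with the nested block, against 7. Over time, the control count from day 1 to day 3 was 4 on the compared libraries alone, against 15, and from day 5 to day 7 it was 2 with weights and 1 on the compared libraries, against 0. In knockdown cells the count from day 3 to day 5 was 0 with quantile scaling or without trend and robust settings, 3 with weights and 4 on the compared libraries, against 1, and from day 5 to day 7 it was 1 with weights, against 0. The difference between arms over the whole course counted 2 with quantile scaling, a minimum mean of 50 or weights, 0 without trend and robust settings or with the replicate block, and 3 on the compared libraries, against 1.

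Leaving out 1 library at a time gave 0 to 2 called factors between arms at day 0, 0 to 5 at day 1, 0 to 1 at day 3, 0 to 1 at day 5 and 2 to 10 for the mean of all days. It gave 5 to 10 for control day 5 against day 3, 11 to 15 for knockdown day 3 against day 1, 0 to 2 for knockdown day 5 against day 3, 0 to 2 for the difference in the step to day 1, and 0 in all 8 fits for the difference over the whole course. With the replicate number as a block 135 calls were made over all comparisons, against 140 without it, and 134 were shared; the difference over the whole course was the only count that this block over all libraries moved by over 1.5 times. The cause of these changes was not tested. With 2 libraries a group, changes of 0.5 on the log2 scale can be missed. The simulated comparison between arms at day 3, in which few genes changed, recovered 45% of them. Recovery in the other comparisons was not simulated.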
